A study of Mus musculus with 3 samples.

Results

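Oxidative phosphorylation genes encode the subunits of the mitochondrial respiratory chain and of the ATP synthase. They were chosen by symbol alone: complex I genes with a Ndufa, Ndufb, Ndufc, Ndufs or Ndufv name and a number, Sdha to Sdhd, every Uqcr gene, Cyc1, Cycs, the Cox4 to Cox8 genes and every Atp5 gene. The rule found 86 of 24421 gene symbols, of which 35 belong to complex I, 4 to complex II, 9 to complex III, 1 is cytochrome c, 20 belong to complex IV and 17 to complex V. Ndufa4 and its paralog Ndufa4l2 carry a complex I name but are placed with complex IV, where the Ndufa4 protein is known to sit.

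In the respiratory chain, complex I takes electrons from NADH and complex II takes them from succinate, and both hand them to coenzyme Q. Complex III passes them on to cytochrome c and complex IV to oxygen, and the protons pumped by complexes I, III and IV drive ATP synthesis at complex V. Maturing granulocytes are known to rely on glycolysis more than on mitochondrial respiration, while their bone marrow precursors hold more mitochondria. The subunits encoded in mitochondrial DNA are not analysed here.

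RNA was sequenced from purified granulocyte progenitors, the bone marrow cells that give rise to neutrophils and other granulocytes. Flow cytometry was used for the purification, and all mice were female. There were 3 libraries, 1 per group. The 4T1-TB library came from F1 semi-syngeneic mice (H-2b/d) that carried an orthotopic implant of 4T1 mammary tumor cells. The IRF8-deficient library came from C57BL/6 mice (H-2b) without functional IRF8, a transcription factor that directs myeloid precursors toward monocytes and dendritic cells. The NTB library, the control, came from non-tumor-bearing F1 semi-syngeneic mice (H-2b/d). Strain and genotype therefore cannot be told apart in any comparison with the IRF8-deficient library. How many mice went into a library is not stated in the labels. With 1 library per group there is no spread between replicates and no test; the intervals below are exact 95% intervals for counting error only and hold no variation between mice.

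Irf8 had an RPKM of 8.60 in the 4T1-TB library, 13.7 in IRF8-deficient and 43.8 in NTB, so its transcript was lowest in the tumor-bearing mice. RPKM is the number of reads per kilobase of gene model, scaled by the library size. Reads recovered from the deposited values summed to 22887265 in 4T1-TB, 35636055 in IRF8-deficient and 41393459 in NTB. The 9 granulocyte progenitor markers summed to an RPKM of 20873 in 4T1-TB, 10387 in IRF8-deficient and 17498 in NTB, nearly all from the granule protein genes Mpo, Elane, Prtn3, Ctsg and the membrane protein gene Ms4a3. Mpo (6749 RPKM in 4T1-TB and 6811 in NTB) and Elane (4332 and 4411) differed little between these 2 libraries. Prtn3 (4585 and 2992), Ctsg (3617 and 2112) and Ms4a3 (1331 and 916) were higher in 4T1-TB. The other markers did not move together either. The stem and progenitor marker Cd34 had 8.73 RPKM in 4T1-TB, 5.41 in IRF8-deficient and 36.9 in NTB. The receptor gene Kit had 37.5, 53.2 and 57.2, and Cebpe, a factor of later granulocyte maturation, had 108, 255 and 77.4. The 12 mature neutrophil markers summed to 1205, 34819 and 1301 RPKM in 4T1-TB, IRF8-deficient and NTB, and all 12 were at least 2-fold higher in IRF8-deficient than in NTB, against 8.78% of all tested genes. Of those 12, 8 were at least 2-fold higher in 4T1-TB than in NTB, against 1.67% of all tested genes. The 3 that were lower in 4T1-TB were Camp (340 RPKM in 4T1-TB and 546 in NTB), Ngp (424 and 632) and Ltf (65.0 and 75.2). These 3 also held most of the IRF8-deficient sum, with 11611, 16528 and 4856 RPKM in that library. The 7 monocyte markers summed to 41.8 RPKM in 4T1-TB, 86.4 in IRF8-deficient and 112 in NTB. Hemoglobin genes were listed at 0 in all 3 libraries, and the 9 erythroid markers together stayed at or under an RPKM of 1.39. B cell markers, nearly all from Cd79b, summed to 12.6, 11.1 and 16.6 RPKM in 4T1-TB, IRF8-deficient and NTB, eosinophil, basophil and mast cell markers to 33.4, 19.9 and 34.3, and those of T and NK cells and of megakaryocytes to at most 0.609 and 3.54. The ribosomal RNA precursor Rn45s held 6.46% of the reads in 4T1-TB, 13.9% in IRF8-deficient and 1.83% in NTB.

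The promoters of nuclear oxidative phosphorylation genes are known for sites of NRF1, a transcription factor that activates many of them. The stretches below come from the RefSeq promoter windows on GRCm38.p6 and are shown because they hold such a site upstream of the annotated start; NRF1 binding was not measured in these samples. Each is written 5′ to 3′ on the strand of its gene. Capitals mark the palindromic NRF1 motif in the first 4, which code the c subunit Atp5g2, the e subunit Atp5k, the complex IV subunit Cox6a1 and the complex I subunit Ndufa11, and the shorter core GCATGCGC in Cycs, the gene of cytochrome c. The stretches lie at chr15:102671055-102671114 on the minus strand (Atp5g2), chr5:108434415-108434474 on the minus strand (Atp5k), chr5:115349086-115349145 on the minus strand (Cox6a1), chr17:56717677-56717736 on the plus strand (Ndufa11) and chr6:50566597-50566654 on the minus strand (Cycs).
Atp5g2: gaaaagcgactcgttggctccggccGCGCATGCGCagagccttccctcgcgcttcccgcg
Atp5k: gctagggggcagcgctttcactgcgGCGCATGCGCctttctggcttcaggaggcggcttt
Cox6a1: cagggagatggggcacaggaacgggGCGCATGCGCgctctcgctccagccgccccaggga
Ndufa11: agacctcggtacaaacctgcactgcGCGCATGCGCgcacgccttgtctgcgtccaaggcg
Cycs: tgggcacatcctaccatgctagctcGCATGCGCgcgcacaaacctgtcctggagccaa
The capitals begin 42 bases before the start in Atp5g2, 50 in Atp5k, 162 in Cox6a1, 60 in Ndufa11 and 60 in Cycs. The fifth match to the longer motif lies 30 bases after the start of Uqcrc1, a core protein of complex III, and is not shown.

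A window of 300 bases, with 250 before and 50 after the start, was found for 70 of the 86 genes. On either strand, the NRF1 motif in capitals in the first 4 occurred in 5 of the 70 (7.14%), against 2.61% of 8170 tested genes with a window and 1.07% of all 27025 genes with one. The core GCATGCGC, which lies inside the longer motif, occurred in 11 of them (15.7%), against 6.63% of the tested genes and 3.05% of all genes with a window. These 11 were Atp5g2, Atp5k, Atp5l, Cox6a1, Cycs, Ndufa6, Ndufa8, Ndufa11, Sdhb, Uqcr11 and Uqcrc1, so every complex had a match. AAGATGGCG, a motif of the transcription factor YY1, occurred in 8 (11.4%), against 4.17% of the tested genes and 1.64% of all genes. CCGGAAG, the core read by ETS factors such as GABPA, occurred in 16 (22.9%), against 22.4% and 9.93%, so its share among the members was near that of the tested genes. TATAAA, the letters of the TATA box, occurred at any position in the window in 7 (10%), against 8.07% and 15.7%. Cox7b2 and Cox8b, which did not reach the level needed to be tested, were among these 7, so the share of tested genes is not a like background. Members with the core motif had a median difference of 0.29 between 4T1-TB and NTB on the log2 scale described below (9 of 11 above 0), against 0.19 for the 57 tested members whose window lacked it (48 above 0). Between IRF8-deficient and NTB the medians were -0.05 with the core (6 of 11 below 0) and -0.20 without it (41 of 57 below 0). For IRF8-deficient against NTB the members with the core spanned -0.64 to 0.15, inside the span of -1.02 to 0.53 of those without it.

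Most of these genes were among the abundant messages of the progenitors. Of the 86, 80 had 1 RPKM or more somewhere and entered the comparisons, and 74 had at least 20 RPKM in each of the libraries. The median of the 80 was 88.0 RPKM in 4T1-TB, 64.9 in IRF8-deficient and 80.7 in NTB, while the median of all 10658 genes tested was 12.1, 12.5 and 12.1 RPKM in the same libraries. Of the 80, 51 were among the top 10% of tested genes in 4T1-TB, 42 in IRF8-deficient and 53 in NTB. Together the 86 genes held 0.858% of the reads in 4T1-TB, 0.465% in IRF8-deficient and 0.825% in NTB. Without the reads of Rn45s the shares were 0.917%, 0.539% and 0.84%. These are shares of the summed reads, which differ from the library sizes used in the RPKM, so they do not compare with RPKM differences.

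The 6 genes left out of the comparisons are forms of complex IV subunits that are known from other tissues. Cox4i2, a form of subunit 4 known from lung, had 0 RPKM in 4T1-TB, 0 in IRF8-deficient and 0.338 in NTB. Cox6a2, the heart and muscle form of subunit 6a, had 0, 0.232 and 0 RPKM in the same libraries. Cox7b2, Cox8b, Cox8c and Ndufa4l2 were listed at 0 in all 3 libraries. The ubiquitous form carried nearly all of the signal in each pair: Cox4i1 had 263 RPKM in 4T1-TB, 235 in IRF8-deficient and 242 in NTB, and Cox8a had 238, 196 and 219 RPKM. Cox7a1, the muscle form of subunit 7a, stayed between 0.419 and 1.11 RPKM, on 4 to 9 reads, and made up at most 0.498% of the summed RPKM of Cox7a1, Cox7a2 and Cox7a2l.

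Levels differed by complex in the same way in every library. Complex IV had the highest median, at 190 RPKM in 4T1-TB, 143 in IRF8-deficient and 141 in NTB over its 14 tested members. Complex V followed with 152, 117 and 134 RPKM, complex III with 102, 69.8 and 82.6, complex II with 69.7, 57.0 and 68.8, and complex I was lowest with 60.9, 45.9 and 53.0. The medians of complexes IV and V differed by less than their quartile ranges. Atp5b, the catalytic beta subunit of the ATP synthase, was the highest member, with 559 RPKM in 4T1-TB, 341 in IRF8-deficient and 462 in NTB. Its alpha partner Atp5a1 came next in 4T1-TB and NTB, with 372 RPKM in 4T1-TB, 199 in IRF8-deficient and 315 in NTB. Ndufs5, an accessory subunit of complex I, was listed at only 1.24, 1.2 and 1.1 RPKM in 4T1-TB, IRF8-deficient and NTB, on 14, 16 and 25 reads. A transcript of Ndufs5 matched another gene, BC002163, at 99.4% identity over 319 bases, and the treatment of reads that fit both is not stated in the labels. Ndufa11, which links the modules of the complex I membrane arm, had 11.8, 10.2 and 9.14 RPKM; the gene model length implied by its values was 2661 bases.

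**Figure D1:**
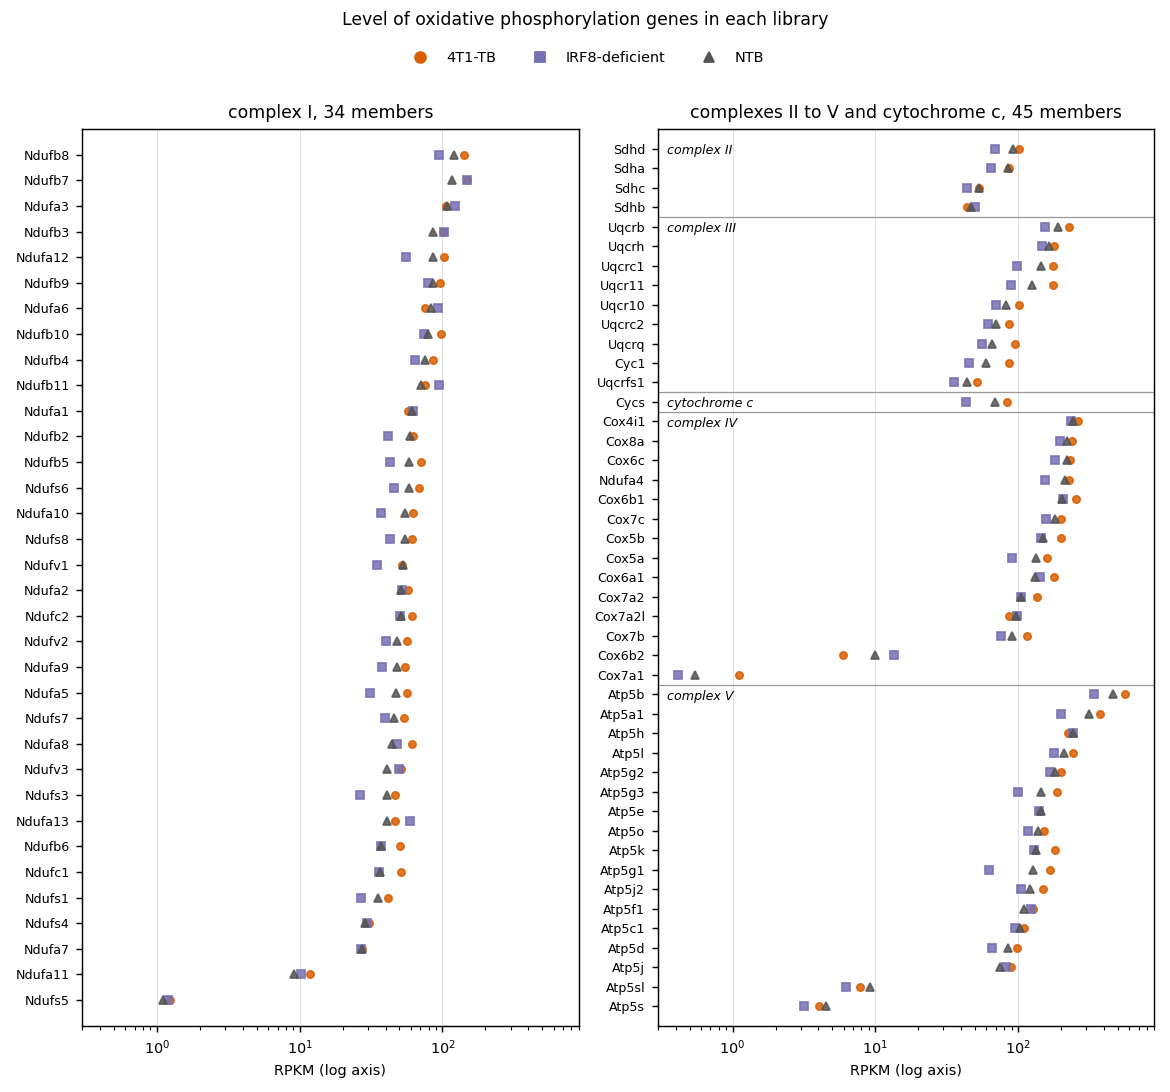
RPKM of 79 members on a log axis in the 4T1-TB (circles), IRF8-deficient (squares) and NTB (triangles) libraries, ordered within each complex by the NTB level. Most members lie between 20 and 300 RPKM, Atp5b is highest at 559 in 4T1-TB, and Ndufs5, Cox7a1, Cox6b2, Ndufa11, Atp5s and Atp5sl lie apart at low levels.

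Between 4T1-TB and NTB progenitors, the members were a little higher in the tumor-bearing mice in every complex except complex II, and the differences were small. The median difference of log2(RPKM + 1), the scale on which folds were called, was 0.21, against 0.01 for all tested genes. The difference was above 0 for 69 of 80 members, against 51% of all tested genes. The quartiles of the members were 0.10 and 0.30, whereas the quartiles of all tested genes were -0.19 and 0.20. No member was at least 1.5-fold higher, a size reached by 4.37% of all tested genes, and 1, Cox6b2, was at least 1.5-fold lower, against 4.97%. Counting intervals of the RPKM ratio lay wholly above 1 for 61 members and wholly below 1 for 5, against 35.9% and 31.9% of all tested genes. Intervals narrow as reads increase, and most members were more abundant than most tested genes. The shares of all tested genes are therefore not a like background for interval counts, here or in the IRF8-deficient comparisons below. The libraries were also rescaled without the 30 genes that were among the 20 highest in any of them. The members' median was then 0.10 and that of all tested genes -0.10. With scaling by summed reads the medians were 0.06 and -0.14. The members above 0 numbered 59 and 50 under these scalings, against 36.6% and 31.3% of all tested genes. Directions and intervals given by complex and by member for this comparison are therefore those of the deposited scaling. In bulk RNA, a change in the mix of sorted cells and a change of RNA per cell cannot be told apart. The mature neutrophil markers summed to 1205 RPKM in 4T1-TB and 1301 in NTB, with 8 of 12 at least 2-fold higher in 4T1-TB, and Rn45s held 6.46% and 1.83% of reads; their part in these differences was not tested.

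Complex III had the largest median of the complexes with more than 1 member, at 0.30, with all 9 members above 0. Cyc1, the cytochrome c1 subunit that hands electrons to cytochrome c, had 85.8 RPKM in 4T1-TB and 59.9 in NTB, a ratio of 1.43 with a counting interval of 1.38 to 1.49. Uqcrq, a small accessory subunit, had 95.3 RPKM in 4T1-TB and 65.3 in NTB, a ratio of 1.46 (1.35 to 1.58), the largest of all members except Cox7a1. Uqcr11, another small subunit, had 175 and 124 RPKM, a ratio of 1.41 (1.32 to 1.5). Uqcrh, the hinge protein that binds cytochrome c1, was the least different, with 179 and 165 RPKM. Cycs, the mobile carrier between complexes III and IV, had 84.0 RPKM in 4T1-TB and 68.4 in NTB, a ratio of 1.23 (1.19 to 1.27).

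Complex II, which also serves the TCA cycle, stood at the other end with a median of 0.01. Its catalytic flavoprotein Sdha had 86.2 RPKM in 4T1-TB and 84.6 in NTB, the membrane anchor Sdhc had 53.2 and 53.1, and the iron-sulfur subunit Sdhb had 44.2 and 46.5. The counting intervals of these 3 ratios all held 1. The other anchor, Sdhd, had 102 and 91.5 RPKM, a ratio of 1.11 (1.06 to 1.16).

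In complexes I, IV and V the medians were 0.19, 0.20 and 0.21. In complex I, 31 of 35 members were above 0 as deposited, and all 10 of the distal pump module were. Ndufb11, of that module, was at 0.08 as deposited and at -0.08 with scaling by summed reads. Ndufc1 had 51.1 RPKM in 4T1-TB and 36.6 in NTB, Ndufa8 had 61.2 and 44.6, and Ndufb6 had 50.3 and 37.0, the largest differences in that complex. Ndufa6 was the lowest against NTB, with 75.7 and 83.8 RPKM. In complex IV, Cox6a1 had 179 RPKM in 4T1-TB and 132 in NTB, and Cox5b, a subunit that binds zinc, had 201 and 149. In complex V the largest difference was that of Atp5k, with 180 RPKM in 4T1-TB and 134 in NTB. The central stalk subunit Atp5e had 140 and 145. Another gene, Atp5k-ps2, matched 56.6% of the Atp5k transcript, and Gm11273 matched that of Cox5b over 390 bases at 99.2% identity.

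Cox6b2, the form of subunit 6b known from testis, lay apart from the other complex IV members. It had 5.91 RPKM in 4T1-TB and 9.95 in NTB, on 81 and 275 reads, a ratio of 0.594 (0.458 to 0.764). The ubiquitous Cox6b1 had 255 RPKM in 4T1-TB and 204 in NTB, a ratio of 1.25 (1.19 to 1.31). Cox6b2 thus made up 2.26% of the summed RPKM of the pair in 4T1-TB and 4.64% in NTB. Cox6b2 lies at chr7:4751792-4753094 on the minus strand of mm10.

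**Figure D2:**
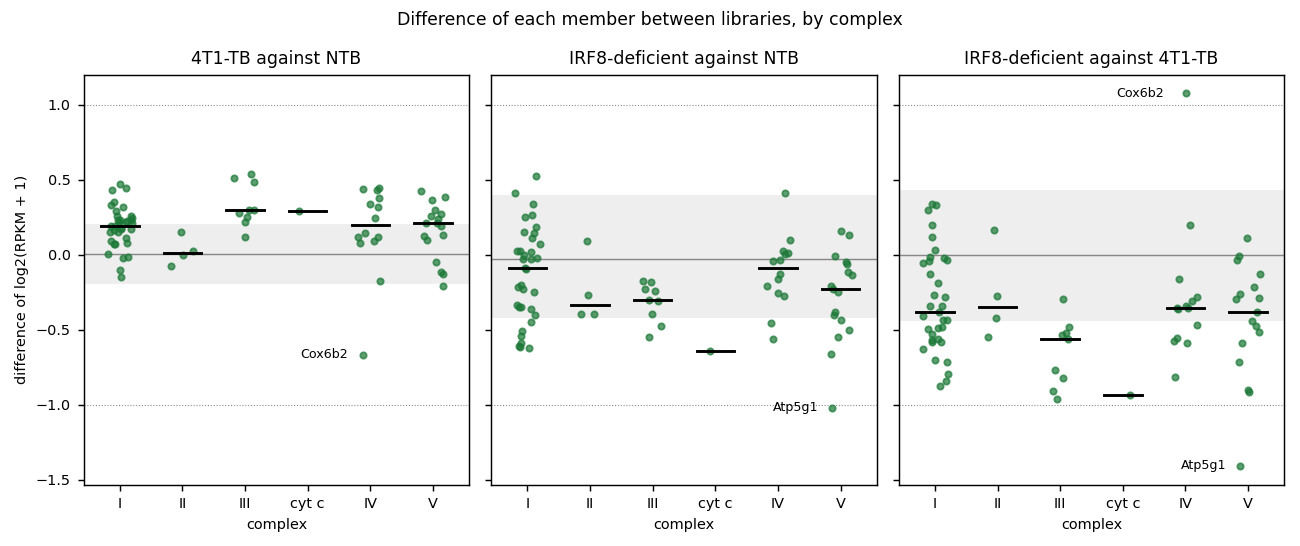
Difference of log2(RPKM + 1) of each of the 80 members, by complex, in the 3 comparisons; dots are genes, black bars are medians, the gray line and band are the median and quartiles of all 10658 tested genes, and dotted lines mark 2-fold. Members sit mostly above 0 for 4T1-TB against NTB and mostly below 0 in both comparisons of the IRF8-deficient library, and Atp5g1 and Cox6b2 lie beyond the dotted lines.

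Between IRF8-deficient and NTB progenitors the members were on balance lower in the mutant, and the complexes were less alike. The median difference of log2(RPKM + 1) was -0.21, against -0.02 for all tested genes. It was below 0 for 58 of 80 members, against 51.5% of all tested genes. Atp5g1 was the only member at least 2-fold lower, a size reached by 5.73% of all tested genes, and none was at least 2-fold higher (8.78% of all). At 1.5-fold, 7 members were lower, against 16.7% of all tested genes, and none was higher, against 17.4%. Members past a fold were thus fewer than in the whole table, whose differences were wider: the quartiles were -0.39 and 0.01 for the members and -0.42 and 0.39 for all tested genes. Counting intervals lay wholly below 1 for 48 members and wholly above 1 for 12, against 43.3% and 40.5% of all tested genes.

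The 7 members were Atp5g1, Atp5a1, Cycs, Ndufs3, Ndufa12, Ndufa5 and Ndufv1. This count depends on the scaling: it was 3 with median ratio scaling (14.9% of all tested genes). It was 17 with rescaling without the genes among the 20 highest in any library (23.5% of all). It was 53 with scaling by summed reads (45.5% of all). That last scaling moved the members' median to -0.76 and that of all tested genes to -0.52. With it all 80 members were below 0, against 80% of all tested genes, so none of the 22 members above 0 as deposited stayed above 0, and the directions of the members named as higher below hold for the deposited scaling. The mature neutrophil marker sum was 34819 RPKM in IRF8-deficient and 1301 in NTB, mostly from Ngp, Camp and Ltf. That sum, the Rn45s share of 13.9% against 1.83% of reads, and the difference in strain stand beside every value of this comparison. Their part in it was not tested.

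Cycs had 43.5 RPKM in IRF8-deficient and 68.4 in NTB, a ratio of 0.635 (0.611 to 0.660). It lies at chr6:50562563-50566538 on the minus strand of mm10, and stretches of its transcript matched 51 other annotated genes at 95% identity or more. In complex III all 9 members were below 0, with a median of -0.30. Uqcrc1 had 98.9 RPKM in IRF8-deficient and 145 in NTB, a ratio of 0.684 (0.660 to 0.708). Uqcr11 had 89.2 and 124 RPKM, Cyc1 had 45.4 and 59.9, and the Rieske iron-sulfur protein Uqcrfs1 had 35.4 and 43.9. Uqcrh, again the least different, had 146 and 165 RPKM.

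In complex II the catalytic flavoprotein and both membrane anchors were lower in IRF8-deficient. Sdha had 64.2 RPKM in IRF8-deficient and 84.6 in NTB, Sdhd had 69.3 and 91.5, and Sdhc had 43.9 and 53.1. Sdhb did not share this: it had 49.7 RPKM in IRF8-deficient and 46.5 in NTB, a ratio of 1.07 whose interval of 0.999 to 1.14 held 1.

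Within complex I the modules had different medians. Its matrix arm holds an NADH-oxidising module, with the flavin and most iron-sulfur clusters, and a quinone module where coenzyme Q is reduced; its membrane arm holds proximal and distal proton-pumping modules. Among the core catalytic subunits, Ndufs3 had 26.3 RPKM in IRF8-deficient and 41.0 in NTB, a ratio of 0.642 (0.586 to 0.704), though another gene, Gm12251, matched 75.7% of its transcript. Ndufv1, the subunit that binds NADH and the flavin, had 35 and 53 RPKM, a ratio of 0.660 (0.621 to 0.701), and no other gene matched its transcript. Ndufs1, the largest iron-sulfur subunit, had 26.7 and 35.5 RPKM.

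Accessory subunits of the matrix arm were mixed. Ndufa12 had 55.6 RPKM in IRF8-deficient and 85.6 in NTB, Ndufa5 had 31.0 and 47.6, and Ndufs6 had 45.9 and 58.6. Another gene, Gm15920, matched the Ndufa12 transcript over 402 bases at 99.5% identity, and the implied gene model of Ndufa12 was 561 bases. Ndufs6b matched Ndufs6 over 287 bases at 95.8%, and no other gene matched Ndufa5. Ndufv3 had 49.8 RPKM in IRF8-deficient and 41.2 in NTB, a ratio of 1.21 (1.14 to 1.28), with a log2 difference of 0.27 that turned to -0.28 with scaling by summed reads. Ndufa6 had 93.2 and 83.8. The median was -0.30 for the 8 members of the NADH-oxidising module, 5 of them below 0, and -0.28 for the 8 of the quinone module, 7 of them below 0.

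The membrane arm, whose nuclear-encoded subunits are all accessory, showed no common direction as deposited. The median was 0.07 for the 9 proximal members, 3 of them below 0, and -0.09 for the 10 distal members, 6 of them below 0. Ndufa13, also known as GRIM-19, had the largest positive difference of all 80 members, with 59.3 RPKM in IRF8-deficient and 40.8 in NTB, a ratio of 1.45 (1.37 to 1.54). Its log2 difference was 0.53 as deposited and -0.02 with scaling by summed reads. Its transcript shares 375 identical bases with Tssk6, so reads of these genes cannot all be told apart. Ndufb11 had 95 and 71 RPKM, a ratio of 1.34 (1.26 to 1.42), with 62.9% of its transcript matched by other genes. Ndufb7 had 148 and 117 RPKM, a ratio of 1.27 (1.2 to 1.34). With scaling by summed reads their log2 differences were -0.14 and -0.22. In the same arm Ndufa10 had 37.3 RPKM in IRF8-deficient and 54.9 in NTB, Ndufb2 had 41.4 and 59.3, and Ndufb5 had 42.8 and 58.7, so members of 1 module lay on both sides of 1.

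**Figure D3:**
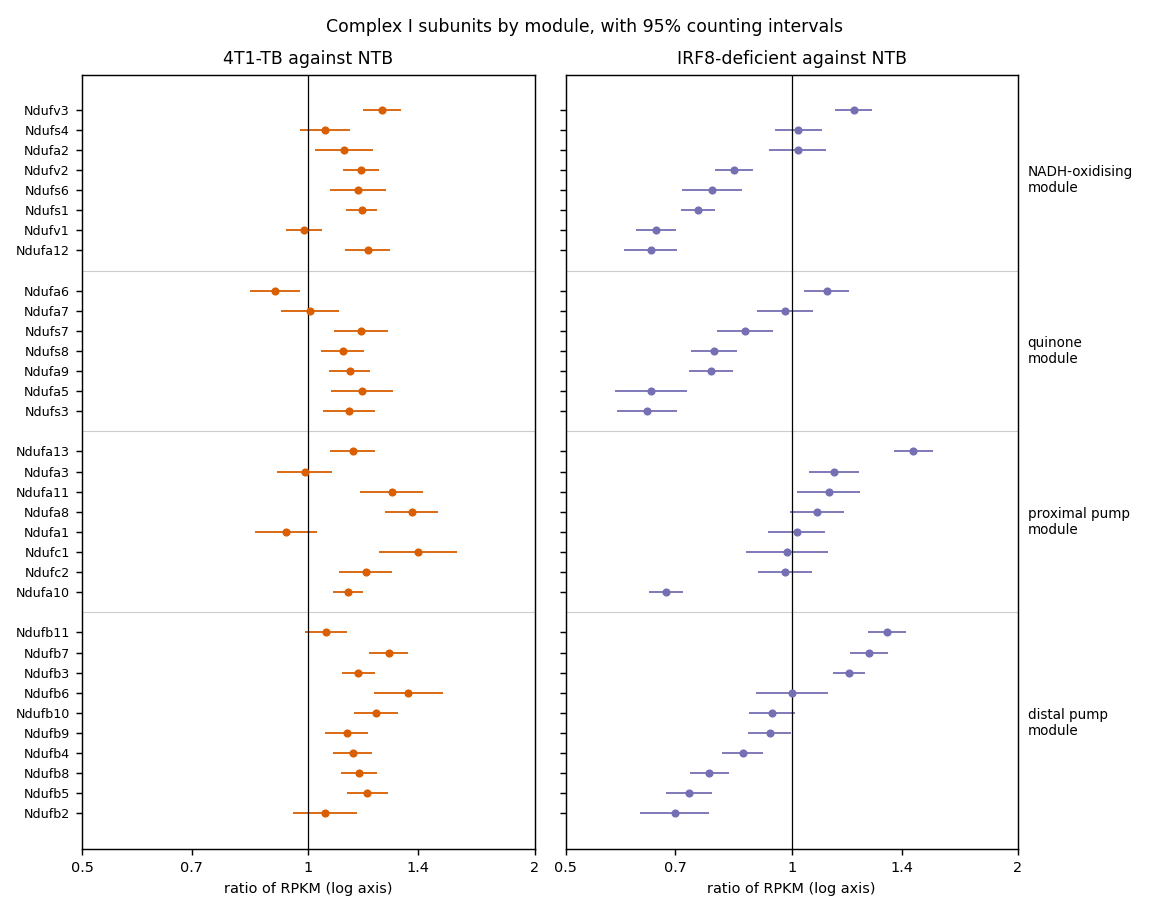
Ratio of RPKM for 33 complex I members by module, for 4T1-TB against NTB (left) and IRF8-deficient against NTB (right), on log axes; bars are 95% counting intervals and Ndufs5, with 14 to 25 reads per library, is left out. The left panel holds mostly ratios from 1.05 to 1.4, and the right panel runs from 0.642 for Ndufs3 to 1.45 for Ndufa13.

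Complex IV had a median of -0.08 in this comparison, with 9 of its 14 tested members below 0. Cox5a, a matrix-side subunit, had 90.2 RPKM in IRF8-deficient and 134 in NTB, a ratio of 0.675 (0.637 to 0.714), and Ndufa4 had 155 and 214, a ratio of 0.727 (0.684 to 0.773). Several members differed little: Cox6b1 had 206 and 204 RPKM, Cox7a2 had 105 and 104, Cox4i1 had 235 and 242, and the supercomplex factor Cox7a2l had 98.7 and 97.0. Their ratios had counting intervals that held 1, so no difference was detectable at this depth in the deposited values. Cox6b2 had 13.6 RPKM in IRF8-deficient and 9.95 in NTB, a ratio of 1.37 (1.14 to 1.64), and its log2 difference of 0.41, like those of the other members above 0, turned below 0 with scaling by summed reads (-0.10).

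In the ATP synthase the catalytic head and the proton-conducting ring were lower in IRF8-deficient, and the peripheral stalk was mixed. All 5 members of the F1 part were below 0. Atp5a1, the alpha subunit, had 199 RPKM in IRF8-deficient and 315 in NTB, a ratio of 0.631 (0.618 to 0.644), and Atp5b had 341 and 462, a ratio of 0.738 (0.725 to 0.752). The delta subunit Atp5d had 65.2 and 85.1 RPKM, while the gamma subunit Atp5c1 had 94.4 and 102 and Atp5e had 139 and 145. The stalk members Atp5f1, Atp5h, Atp5j and Atp5o had a median of 0.06. Atp5f1 had 124 RPKM in IRF8-deficient and 110 in NTB, Atp5h had 242 and 244, Atp5j had 82.1 and 74.6, and Atp5o had 117 and 139; more than 60% of the transcript of Atp5f1, Atp5h and Atp5o was matched by other genes. The membrane subunits Atp5j2, Atp5k and Atp5l had a median of -0.21, and other genes matched 56.6% of the Atp5k and 86.8% of the Atp5l transcript.

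The c ring is built from a single mature protein that 3 genes encode, Atp5g1, Atp5g2 and Atp5g3, which differ in the leader peptide that is removed on import. Atp5g1, at chr11:96068852-96075670 on the minus strand of mm10, had 62.4 RPKM in IRF8-deficient and 127 in NTB, a ratio of 0.490 (0.461 to 0.520). Its log2 difference was -1.02 as deposited and -0.97 both with median ratio scaling and with a pseudocount of 5, so the 2-fold call rests on these choices. Atp5g3 had 99.0 RPKM in IRF8-deficient and 145 in NTB, a ratio of 0.682 (0.646 to 0.720). Atp5g2, whose upstream NRF1 site is printed above, had 166 and 183 RPKM, a ratio of 0.911 (0.87 to 0.954). The summed RPKM of the 3 genes was 554 in 4T1-TB, 328 in IRF8-deficient and 455 in NTB. Atp5g1 made up 30.2% of that sum in 4T1-TB, 19% in IRF8-deficient and 28% in NTB, and Atp5g2 made up 36%, 50.7% and 40.1%. Parts of the Atp5g1 transcript matched 12 other annotated genes, and those of Atp5g3 matched none. The matched parts were 17.1% of a transcript of 4715 bases, but the gene model implied by the Atp5g1 values was 868 bases. The longest match, to Gm10039, was 411 bases at 99.8% identity. The matched share of the shorter model was not determined.

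**Figure D4:**
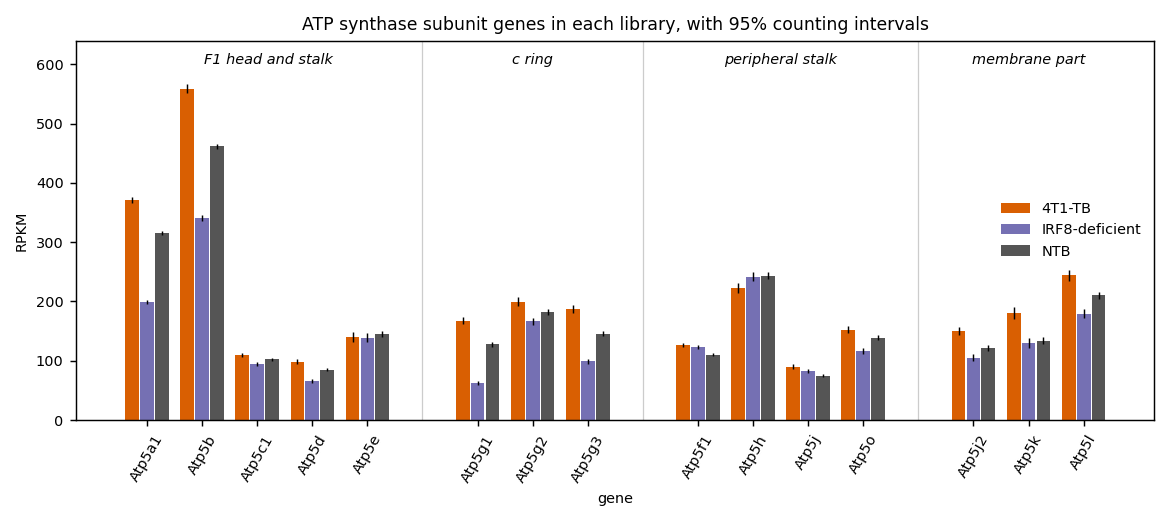
RPKM of 15 ATP synthase subunit genes in the 4T1-TB, IRF8-deficient and NTB libraries, grouped by part of the enzyme; bars start at 0 and lines are 95% Poisson counting intervals. Atp5b is highest in each library (559, 341 and 462), the IRF8-deficient bar of Atp5g1 is under that of NTB (62.4 against 127), and the peripheral stalk bars are closer together.

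Atp5s and Atp5sl carry ATP synthase names but are not structural subunits. Atp5s, a coupling factor, had 4.06 RPKM in 4T1-TB, 3.15 in IRF8-deficient and 4.48 in NTB. Atp5sl, now known as a complex I assembly factor, had 7.82, 6.19 and 9.17 RPKM. Both were highest in NTB, which held for only 5 of the 80 members, against 26.7% of all tested genes. The highest level was in 4T1-TB for 66 members, against 31.6% of all tested genes, and in IRF8-deficient for 9, against 41.7%. With scaling by summed reads only 50 members were higher in 4T1-TB than in NTB, so these counts hold for the deposited scaling.

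The IRF8-deficient and 4T1-TB libraries, both low in Irf8, stood farther apart in the members' median than either did from NTB. That median was -0.41, against -0.00014 for all tested genes, and the difference was below 0 for 70 of 80 members, against 50% of all tested genes. At 1.5-fold, 18 members were lower, against 18.1% of all tested genes, and 1 was higher, against 18.6%. These 18 comprised 6 of complex I, 4 of complex III, Cycs, 2 of complex IV and 5 of complex V. Counting intervals lay wholly below 1 for 61 members and wholly above 1 for 8, against 41.1% and 40.9% of all tested genes. With scaling by summed reads the members' median was -0.79 and that of all tested genes -0.35, and 58 members were at least 1.5-fold lower, against 35.1% of all tested genes.

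Atp5g1 had 62.4 RPKM in IRF8-deficient and 167 in 4T1-TB, a ratio of 0.374 (0.351 to 0.398). It was the only member at least 2-fold lower, a size reached by 7.07% of all tested genes. Uqcr11 had 89.2 and 175 RPKM, a ratio of 0.511 (0.473 to 0.553). Cycs had 43.5 and 84.0 RPKM, a ratio of 0.517 (0.496 to 0.539). Cyc1 had 45.4 and 85.8 RPKM, a ratio of 0.529 (0.504 to 0.554), so the carrier and its docking subunit had nearly the same ratio. Complex III as a whole had a median of -0.56, with 9 of 9 below 0, and complexes I, II, IV and V had -0.38, -0.35, -0.35 and -0.38.

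Cox6b2 was the only member at least 2-fold higher, a size reached by 8.83% of all tested genes. It had 13.6 RPKM in IRF8-deficient and 5.91 in 4T1-TB, a ratio of 2.30 (1.77 to 3.01), which fell short of 2-fold with scaling by summed reads (log2 difference 0.70) and with a pseudocount of 5 (0.77). Ndufb11 had 95 and 75 RPKM, Ndufa13 had 59.3 and 46.8, and Ndufa6 had 93.2 and 75.7, the next largest in that direction. With scaling by summed reads Cox6b2 was the only member above 0, against 28.3% of all tested genes. Mature neutrophil markers summed to 34819 RPKM in IRF8-deficient and 1205 in 4T1-TB, mostly from Ngp, Camp and Ltf. The part of these markers in the differences was not tested.

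Short and long gene models were compared because most subunits are small. Of the 80 members, 50 had an implied gene model under 1000 bases. For 4T1-TB against NTB their median was 0.23, against 0.13 for all 905 tested genes that short, and the 30 longer members had 0.19, against -0.0028 for 9753 genes. For IRF8-deficient against NTB the short members had -0.15, against -0.11 for all short genes, and the longer ones -0.29, against -0.02. For IRF8-deficient against 4T1-TB the short members had -0.39, against -0.26, and the longer ones -0.45, against 0.02. All of these gene sets include the members. Between IRF8-deficient and NTB the short members thus lay close to all short genes, and the longer ones did not lie close to all longer genes.

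Other nuclear genes of mitochondrial energy metabolism were counted from lists by function. Among assembly factors, which build the complexes but are not part of them, the median for IRF8-deficient against NTB was -0.28, with 35 of 47 below 0. At least 2-fold, 5 were lower and none higher, against 5.73% and 8.78% of all tested genes. The 3 largest differences were those of Sdhaf3 (1.67 RPKM in IRF8-deficient and 5.64 in NTB), Sdhaf4 (2.99 and 8.87) and Ndufaf4 (2.48 and 7.44), which assemble complexes II and I. For 4T1-TB against NTB the list's median was 0.08 as deposited and -0.06 with scaling by summed reads, with Ndufaf3 (17.4 RPKM in 4T1-TB and 11.5 in NTB), Cox17 (68.8 and 47.2) and Coa3 (55.4 and 40.8) the most different.

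Among 18 genes of the TCA cycle and pyruvate dehydrogenase, 16 were below 0 for IRF8-deficient against NTB, with a median of -0.32, and 3 were at least 2-fold lower, against 5.73% of all tested genes. These were Suclg2 (9.53 RPKM in IRF8-deficient and 26.7 in NTB), Idh2 (44.9 and 109) and Idh3a (18.2 and 38.7). Genes of coenzyme Q synthesis and of other enzymes that reduce the quinone had a median of -0.44 over 19, with 16 below 0. Sqrdl, which feeds electrons from sulfide oxidation to coenzyme Q, went the other way, with 68.0 RPKM in IRF8-deficient and 12.0 in NTB. For 4T1-TB against NTB these lists had medians of 0.11 and 0.12, with 14 of 18 and 14 of 19 above 0, but -0.04 and -0.02 with scaling by summed reads.

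A list of ADP/ATP carriers, the phosphate carrier, the ATP synthase inhibitor and uncoupling proteins held 5 tested genes, with a median of -0.64 for IRF8-deficient against NTB. The ADP/ATP carrier Slc25a5 had 234 RPKM in IRF8-deficient and 364 in NTB, and the less abundant carrier Slc25a4 had 17.8 and 41.0. The phosphate carrier Slc25a3 had 94.9 and 154 RPKM, and Atpif1, the inhibitor of the ATP synthase, had 58.5 and 82.2. Ucp2, an uncoupling protein family member, had 193 and 118. Import, membrane and quality control genes had a median of -0.58 over 24, with 21 below 0 and 4 at least 2-fold lower, against 5.73% of all tested genes. The mitochondrial chaperones Hspe1 (40.6 and 108 RPKM), Hspa9 (42.8 and 113) and Hspd1 (61.2 and 160) were the most different of that list. For 4T1-TB against NTB all 24 of them were above 0, or 18 with scaling by summed reads, with a median of 0.28, and Tomm22, a receptor of the outer membrane import pore, had 97.8 RPKM in 4T1-TB and 69.8 in NTB.

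Transcription and biogenesis factors had medians of 0.00 for 4T1-TB against NTB and -0.18 for IRF8-deficient against NTB over 16 tested genes. The NRF1 gene, Nrf1, had 11.8 RPKM in 4T1-TB, 14.4 in IRF8-deficient and 10.3 in NTB, and Tfam, which packages mitochondrial DNA, had 8.61, 7.16 and 9.96. Pprc1, a coactivator of NRF1, had 4.82 RPKM in IRF8-deficient and 13.7 in NTB, and the mitochondrial helicase gene Peo1 had 3.04 and 7.35.

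Mitochondrial ribosomal protein genes had a median of 0.27 for 4T1-TB against NTB (74 of 77 above 0) and -0.38 for IRF8-deficient against NTB (66 of 77 below 0). With scaling by summed reads these medians were 0.13 (60 of 77 above 0) and -0.89 (77 of 77 below 0). Cytosolic ribosomal protein genes had 0.04 (-0.11 with scaling by summed reads) and -0.43, with 78 of 78 below 0 in IRF8-deficient. The proton-pumping vacuolar ATPase of lysosomes and granules, which resembles the ATP synthase in build, had 0.23 and 0.41, with 14 of 15 above 0 in both comparisons; with scaling by summed reads the medians were 0.07 and -0.15. The member medians of 0.21 and -0.21 stand inside the range of these lists, and both comparisons share the NTB library.

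**Figure D5:**
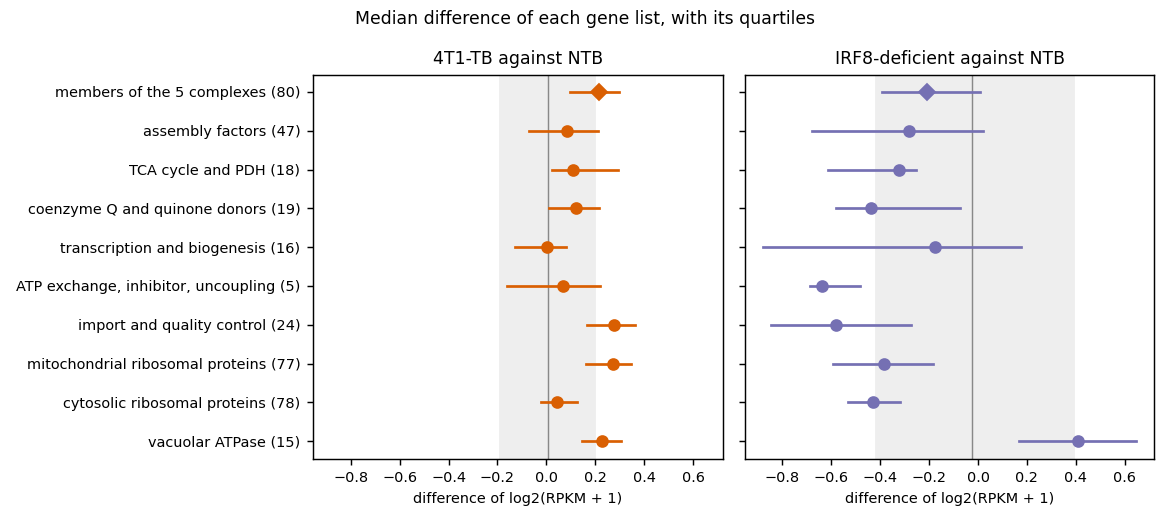
Median difference of log2(RPKM + 1) of the 80 members (diamonds) and of 9 other gene lists (circles), with lines from the first to the third quartile and the number of tested genes in brackets, for 4T1-TB against NTB (left) and IRF8-deficient against NTB (right); the gray line and band are the median and quartiles of all tested genes. The members lie at 0.21 and -0.21, and the vacuolar ATPase is the only list shown with a median above 0 in the right panel, which turned to -0.15 with scaling by summed reads.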

How the data were processed

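RNA-seq of 3 libraries, 1 per group, was grouped by the mouse model in the labels. The deposited values are RPKM that the authors made for 24421 symbols. Per the submitters' processing notes the build was mm10 and the tools were edgeR 3.12.1, HTSeq 0.6.1, Picard 1.97, TopHat2 2.0.13, cutadapt 1.2.1 and CASAVA 1.8.2, with no role given for any. The annotation and the handling of reads that map to several places are not stated there.

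RPKM was used as deposited. A pseudocount of 1 was added before log2, which makes the differences of weakly expressed genes too small. A gene was tested where any library reached 1 RPKM (10658 genes), and calls were made at 2-fold and 1.5-fold. Whole reads were recovered for 99.6% of 15158 genes above 0, because the values of a gene stand in ratios of whole numbers. Implied gene lengths were whole within 0.02 bases for 99.7%. The library sizes in the RPKM were 0.97 (4T1-TB), 0.733 (IRF8-deficient) and 1.08 (NTB) times the summed reads, and the labels do not say why. Intervals are Clopper-Pearson for ratios and Poisson for levels, at 95%. The steps were tested on simulated data. Near-identical copies were searched with BLAST 2.17.0 against GENCODE M21 transcripts, with at least 95% identity over 100 bases. Coordinates come from GENCODE M21 on mm10.

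The members were set by a symbol rule, and the members and lists were chosen with earlier results of these data known. Genes outside the members are Irf8, marker lists, and from each list up to 3 with the largest difference, given 5 RPKM or more in any library. The values of 1 member are not reported here. Rn45s, Slc25a5, Atpif1 and genes named as matching a transcript were named after their values were seen. Alternatives were a pseudocount of 0.1 or 5, scaling by the median ratio, and testing with no minimum or from 5 RPKM. Others were leaving out members that are not structural subunits, and rescaling after leaving out the 20 highest genes. The genes left out there were the 30 that ranked among the 20 highest in any library, and they were left out of every library. Scaling by summed reads and leaving out members largely matched by another gene were added after the data were seen. Python 3.11.15 was used with scipy 1.17.1, numpy 2.4.6 and matplotlib 3.10.9.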

Additional observations from a re-analysis of the deposited data

How the results depend on the processing

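The distance of the members' median from that of all tested genes kept its sign under the alternatives run, from 0.174 to 0.213 for 4T1-TB against NTB, from -0.244 to -0.177 for IRF8-deficient against NTB and from -0.446 to -0.371 for IRF8-deficient against 4T1-TB. Before that centring, rescaling without the 20 highest genes gave medians of 0.102 for 4T1-TB against NTB and -0.37 for IRF8-deficient against NTB, and scaling by summed reads gave 0.059, -0.764 and, for IRF8-deficient against 4T1-TB, -0.792. With a pseudocount of 0.1, Cox7a1 became 1 member at least 1.5-fold higher in 4T1-TB than in NTB and made 2 members at least 2-fold lower in IRF8-deficient than in 4T1-TB; rescaling without the 20 highest genes also gave 2 there. With a pseudocount of 5, 0 members were 1.5-fold lower in 4T1-TB than in NTB, and for IRF8-deficient against NTB 0 were 2-fold and 3 were 1.5-fold lower, as with median ratio scaling (0 and 3). The 1.5-fold count of that comparison was 17 without the 20 highest genes (23.5% of all tested genes). Scaling by summed reads gave 14 members 2-fold and 53 members 1.5-fold lower in IRF8-deficient than in NTB, against 18.8% and 45.5% of all tested genes, and 16 and 58 than in 4T1-TB, against 14.9% and 35.1%. For IRF8-deficient against 4T1-TB, 0 members were 2-fold higher with a pseudocount of 5 or with that scaling. For IRF8-deficient against NTB all 22 members above 0 turned below 0 with scaling by summed reads, Cox6b2 among them (-0.10). Scaling changes the counts by construction, since it moves every gene by the same factor; the cause of the other changes was not tested.

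Leaving out a replicate was not possible with 1 library per group. No paired analysis was possible because each group has 1 library and the labels carry no replicate numbers. At the depth of these libraries a single member's counting interval reached 0.0855 to 0.0984 to either side on the log2 scale, at the median in each comparison. Variation between mice, strain, and differences in the mix of sorted cells are not covered by any interval. Reads shared with near-identical copies can move members such as Cycs, Ndufs3, Ndufa12, Ndufb11, Cox5b, Atp5g1, Atp5k, Atp5l and Atp5o.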
